A study of Mus musculus with 2 samples.

Results

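The metabotropic glutamate receptor genes Grm2, Grm3, Grm4, Grm5, Grm7 and Grm8 were examined in single-nucleus RNA sequencing data of the mouse thalamus. The 6 genes were taken by name from the 32285 gene rows of both count matrices with Ensembl identifiers matched to symbols on GRCm38. All 6 had UMIs (unique molecular identifiers, each counting 1 captured RNA molecule) in both libraries. One library came from mice that received cortical ablation injury (CAI), in which sensory and motor cortex of 1 hemisphere is removed by aspiration. The other came from sham mice, whose skull was opened without removal of cortex. Both groups were female C57BL/6J mice operated at 3 months of age, and the thalamus of the operated side was collected 21 days later. Nuclei of 4 mice were pooled, stained and sorted for each library. With 1 pooled library a group there is no replicate check, no test was possible, and a difference below is a difference between these 2 libraries. Intervals are at 95% and cover counting error only.

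Metabotropic glutamate receptors are G protein-coupled receptors that sense glutamate and fall into 3 groups. Group I receptors, to which mGlu5 (Grm5) belongs, couple to Gq and phospholipase C and sit mainly on the postsynaptic side. Group II (mGlu2 and mGlu3, from Grm2 and Grm3) and group III (mGlu4, mGlu7 and mGlu8, from Grm4, Grm7 and Grm8) couple to Gi/o, lower cyclic AMP and often act as brakes on transmitter release. In the thalamus, axons from the cortex reach relay neurons and engage their group I receptors. Reticular neurons, the GABAergic cells that surround and inhibit the relay nuclei, are known for mGlu3, as are astrocytes. The comparison of CAI with sham thalamus asks how the receptor genes stand after a lesion of the cortex that sends such axons. Which nuclei lost cortical input was not measured.

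Filters left 16373 nuclei of the sham library (median depth 7190 UMIs) and 21777 of the injury library (6810 UMIs). Clusters were named from marker genes, and each name stands for nuclei that are like that class. Relay-like nuclei numbered 4603 (sham) and 4499 (injury), habenula-like nuclei 1848 and 2096, GABAergic nuclei 1964 and 3225, other glutamatergic nuclei 4060 and 4557, astrocyte-like nuclei 209 and 509, oligodendrocyte-like nuclei 1005 and 2316, and oligodendrocyte-precursor-like nuclei 109 and 165. Microglia-like nuclei, 27 in the sham library, were too few to compare. The markers set the classes apart. Slc17a6, the vesicular glutamate transporter VGLUT2, had 178 and 169 CPM in sham and injury relay-like nuclei against 10.3 and 12.7 CPM in GABAergic nuclei, where CPM is the UMIs of a gene per 1000000 UMIs of the class. Prkcd, a relay marker, had 291 and 310 CPM in relay-like nuclei and 5.32 and 6.04 CPM in habenula-like nuclei. Pou4f1 had 69.5 and 59.99 CPM in habenula-like nuclei. Gad1, the GABA-synthesizing enzyme, had 186 and 183 CPM in GABAergic and 0.892 and 0.836 CPM in relay-like nuclei. The libraries stand apart in their makeup. Neuron clusters with leading genes Ano2 and Prdm16 (GABAergic, 1 sham and 381 injury nuclei), Neurod6 (cortex-like, 0 and 280) and Dsp (dentate-like, 0 and 208) came almost wholly from the injury library and were kept out of the classes. Clusters present in both libraries were also kept out, because markers of other cell types outnumbered their own among the leading genes. They were led by Glis3 (glutamatergic, 1032 and 887 nuclei), Gm36903 (glutamatergic, 195 and 192) and Adamtsl3 (155 and 162). The libraries shared 101 barcode sequences.

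The 6 genes differ greatly in size, which matters for nuclear RNA, since whether intronic reads were counted is not stated. On GRCm38 with GENCODE M21, Grm5 lies on chromosome 7 from 87584168 to 88134907 on the plus strand. Grm2 lies on chromosome 9 from 106643095 to 106656082 and Grm3 on chromosome 5 from 9485541 to 9725170, both on the minus strand. Grm4 spans chromosome 17 from 27422387 to 27521403 on the minus strand. Grm7 spans chromosome 6 from 110645581 to 111567230 on the plus strand, and Grm8 the same chromosome from 27275119 to 28135178 on the minus strand. Gene bodies ran from 13.0 kb for Grm2 to 921.6 kb for Grm7. Each gene overlaps at least 1 small annotated gene, and an antisense one overlaps Grm2, Grm4, Grm5, Grm7 and Grm8. Use of strand in counting is not stated, so reads of an antisense partner cannot be told apart from those of the receptor gene.

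Levels between genes were compared per length and as CPM, in sham relay-like nuclei. Per 100 kb of gene body, Grm7 stood at 394 CPM and Grm5 at 218 CPM, followed by Grm4 at 119.6, Grm2 at 77.0, Grm3 at 41.6 and Grm8 at 22.0 CPM. Per kb of exon the order began the same way, with Grm7 at 616 and Grm5 at 117 CPM, but then ran Grm3 at 32.7, Grm4 at 19.8, Grm8 at 19.2 and Grm2 at 2.05 CPM. With 3' chemistry the UMIs of a gene need not grow with its exon length, so the CPM without division by length is given too. It was 3628 for Grm7, 1201 for Grm5, 189.6 for Grm8, 118 for Grm4, 99.6 for Grm3 and 10.0 for Grm2. Grm7 and Grm5 thus led on each scale, whereas the place of the other 4 genes depended on the scale.

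The plot of levels by class shows that each gene had its own distribution over cell types.

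**Figure D1:**
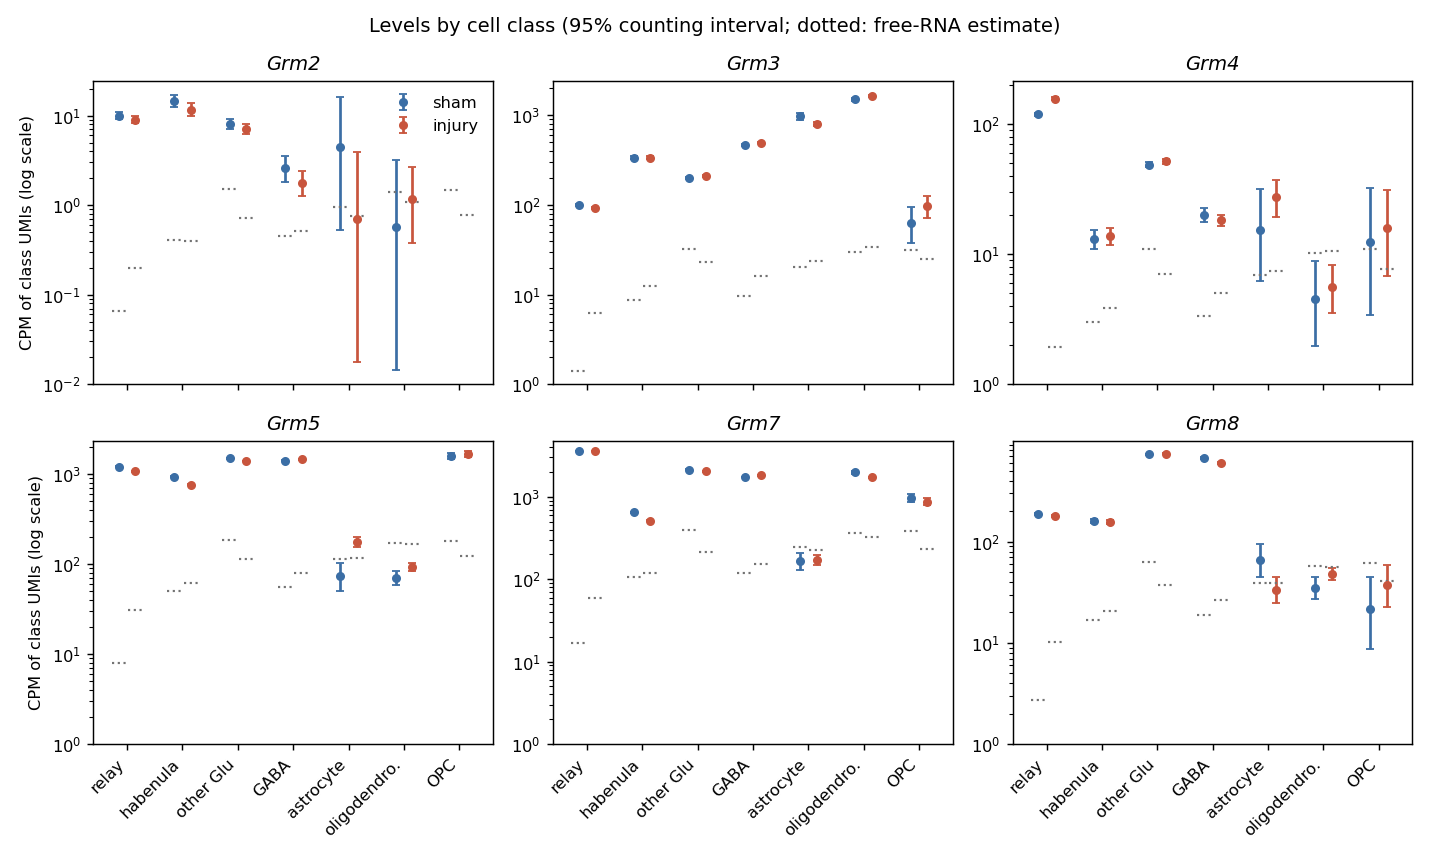
Level of each of the 6 genes (CPM of the UMIs of the class, log scale) in 7 cell classes, for the sham (blue) and injury (red) library; points are the 2 libraries, bars the 95% counting interval and dotted lines the level that free RNA would give by estimate. Grm4 is highest in relay-like nuclei, Grm3 in oligodendrocyte-like and astrocyte-like nuclei, and Grm8 in other glutamatergic and GABAergic nuclei; Grm2 had 0 UMIs in oligodendrocyte-precursor-like nuclei and has no point there.

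Grm5, the group I gene, was measured at a similar high level in most neurons and in oligodendrocyte precursors. Its level in sham and injury was 1578 and 1653 CPM in oligodendrocyte-precursor-like nuclei, 1488 and 1382 CPM in other glutamatergic nuclei, 1399 and 1445 CPM in GABAergic nuclei, 1201 and 1061 CPM in relay-like nuclei and 933 and 760.2 CPM in habenula-like nuclei. In the sham library the intervals of oligodendrocyte-precursor-like (1444 to 1722) and other glutamatergic nuclei (1475 to 1501) overlapped, and the neighbours below them in this order did not. Oligodendrocyte-like nuclei, with 69.5 and 93.1 CPM, lay below the level that free RNA would give there (170 and 168 CPM, from the share of neuronal Slc17a6, Slc17a7 and Gad2 in these nuclei), so no Grm5 expression was read from them.

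In relay-like nuclei Grm5 was lower in the injury library, by 0.18 on the log2 scale (log2 ratio -0.18, interval -0.20 to -0.16). This is short of a log2 difference of 0.25, the fold limit used here to call a gene. The study set that limit together with one on the adjusted P value, in its neuronal clusters. Here it stands alone, on ratios of summed CPM. Grm5 was lower in the injury library in all 6 relay-like clusters, each with an interval below 0. The log2 ratio was -0.08 in the cluster led by C6, -0.21 in the Adgrf5 cluster, -0.12 in the Ppp1r3a and Adgrg6 clusters, -0.27 in the Npsr1 cluster and -0.29 in the Fgf10 cluster. These clusters are different nuclei of the same 2 libraries and no replicates of the injury. The Npsr1 cluster, highest in Grm5 in sham at 1562 CPM, was 10.3% of sham and 5.98% of injury relay-like nuclei. The Ppp1r3a cluster, lowest in sham at 972 CPM, was 11.7% and 15.3%. The class ratio was thus taken over a different mix of clusters in each library. Over the 26 named clusters with at least 50 nuclei in each library, the interval for Grm5 lay below 0 in 14 and above 0 in 3.

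Habenula-like nuclei gave a larger Grm5 difference as a class than in any of its clusters. The class ratio was -0.29 (-0.34 to -0.25). Within the cluster led by Chat, the enzyme that makes acetylcholine, it was -0.09 (-0.23 to 0.04), from 237 CPM in sham to 222 CPM in injury. It was -0.08 (-0.13 to -0.03) in the Ptprq cluster, from 1392 to 1314 CPM, and -0.07 (-0.16 to 0.02) in the Pde11a cluster, from 789 to 752 CPM. The Chat cluster, lowest in Grm5, made up 31.6% of sham and 44.4% of injury habenula-like nuclei. With the same mix of clusters in both libraries the class ratio was -0.08, inside the fold limit.

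Among GABAergic nuclei, Grm5 went from 1455 CPM in sham to 1565 CPM in injury in the cluster with Gata3 and Pax6, a log2 ratio of 0.10 (0.08 to 0.13). In the cluster with Six3, Pvalb, Ubash3b and Meis2 among its leading genes, called reticular-like below, it had 1245 and 1128 CPM, a ratio of -0.14 (-0.20 to -0.09). The intervals of the 2 clusters do not overlap, though both differences are small.

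Group II genes came next. Among the classes large enough to compare, Grm3 was highest in oligodendrocyte-like and astrocyte-like nuclei. Among the neuron classes Grm3 was lowest in relay-like nuclei. It stood at 1522 and 1656 CPM in sham and injury oligodendrocyte-like nuclei, 974 and 799 CPM in astrocyte-like, 463 and 495 CPM in GABAergic, 337 and 338 CPM in habenula-like, 199.6 and 212 CPM in other glutamatergic and 99.6 and 92.9 CPM in relay-like nuclei. No 2 neighbours in that order had overlapping intervals in the sham library. Oligodendrocyte-precursor-like nuclei, with 20 UMIs in sham and 49 in injury, stood at 62.3 and 96.3 CPM, of which free RNA would give 31.6 and 24.7 CPM. Free RNA would give 29.9 and 34.3 CPM in oligodendrocyte-like and 20.1 and 23.8 CPM in astrocyte-like nuclei, far under the measured levels. After each nucleus was thinned to 3000 UMIs, 91.4% of sham astrocyte-like nuclei (exact binomial interval 76.9 to 98.2, 35 nuclei deep enough) and 24.8% of sham relay-like nuclei (23.5 to 26.1, 4522 nuclei) held a Grm3 UMI. The share was 57.3% in sham oligodendrocyte-like nuclei (45.4 to 68.7, 75 nuclei), whose interval overlaps that of habenula-like nuclei (53.2%, 50.7 to 55.7), and 80.3% in injury astrocyte-like nuclei (74.0 to 85.7). No order between oligodendrocyte-like and the other nuclei was read from these shares, which go against the CPM. Thinned to 1500 UMIs, the sham shares were 78.3% in oligodendrocyte-like (74.6 to 81.6, 552 nuclei), 72.2% in astrocyte-like (64.15 to 79.4) and 35.9% in habenula-like nuclei. In the injury library they were 83.8%, 58.9% and 35.7%. The order was then that of the CPM, with overlapping intervals of the first 2 in sham. Without thinning the sham shares were 73.7% in astrocyte-like, 80.6% in oligodendrocyte-like and 55.2% in relay-like nuclei, at median depths of 1892, 1552 and 9847 UMIs.

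Within the GABAergic class Grm3 marked the reticular-like nuclei. Their level was 1221 CPM in sham and 1281 CPM in injury, against 189 and 196 CPM in the Gata3 and Pax6 cluster. The ratio between libraries was 0.07 (0.02 to 0.12) and 0.05 (-0.03 to 0.13). Among habenula-like nuclei the Pde11a cluster was highest, with 705 and 693 CPM, over the Chat cluster with 277 and 288 CPM and the Ptprq cluster with 201 and 209.8 CPM. Over the 4 oligodendrocyte-like clusters Grm3 ranged from 322 to 1907 CPM in sham. The lowest was the cluster led by Prom1, with 322 and 331 CPM, and the other 3 were at 1465 CPM or above in both libraries.

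The Grm3 ratio was inside the fold limit in each neuron class. Its log2 ratio was -0.10 (-0.16 to -0.04) in relay-like, 0.00 (-0.06 to 0.07) in habenula-like, 0.09 (0.04 to 0.13) in other glutamatergic and 0.09 (0.05 to 0.14) in GABAergic nuclei. Single clusters went past the limit with intervals that exclude 0. These were 3 of the 6 relay-like clusters, Adgrf5 (-0.26), Adgrg6 (-0.32) and Npsr1 (-0.28), and, upwards, the Oxt and Avp cluster (0.32).

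Grm2 was scarce. Habenula-like nuclei stood at 14.6 CPM in sham (156 UMIs) and 11.6 in injury (146 UMIs), relay-like nuclei 10.01 and 8.98 CPM, other glutamatergic nuclei 8.03 and 7.10 CPM and GABAergic nuclei 2.58 and 1.77 CPM. In the sham library the interval of habenula-like nuclei (12.4 to 17.0) lay above that of relay-like nuclei (9.16 to 10.9), whereas in the injury library the 2 intervals overlapped. Glia had at most 5 UMIs in any class and library. Oligodendrocyte-precursor-like nuclei had 0 in both libraries, with intervals that reach 11.5 CPM in sham and 7.25 CPM in injury. Thinned to 3000 UMIs, 3.23% of sham relay-like nuclei (2.73 to 3.79) held a UMI of Grm2, against 0 of 75 sham oligodendrocyte-like nuclei, and without thinning the shares were 10.2% and 0.0995% at median depths of 9847 and 1552 UMIs. No Grm2 difference between libraries was detectable at this depth. The log2 ratio was -0.16 (-0.34 to 0.03) in relay-like, -0.33 (-0.66 to 0.01) in habenula-like, -0.18 (-0.42 to 0.07) in other glutamatergic and -0.54 (-1.23 to 0.14) in GABAergic nuclei, so that every interval contains 0.

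Of the group III genes, Grm4 was highest in relay-like nuclei, and it was the receptor gene of the 6 whose ratio between libraries was past the fold limit there. In sham and injury, relay-like nuclei had 118 CPM (115 to 121, from 5974 UMIs) and 156 CPM (153 to 159.6, from 8036 UMIs). Other glutamatergic nuclei followed with 48.7 and 51.8 CPM. GABAergic nuclei had 20.03 and 18.2 CPM and astrocyte-like nuclei 15.4 and 27.3 CPM (7 and 39 UMIs), with overlapping intervals in both libraries. The free-RNA estimate in astrocyte-like nuclei was 6.91 and 7.35 CPM. Habenula-like nuclei had 13.0 and 13.7 CPM, where the estimate for free RNA was 2.99 and 3.88 CPM. Oligodendrocyte-like nuclei had 8 UMIs in sham and 24 in injury, or 4.52 and 5.55 CPM, below the free-RNA estimate of 10.2 and 10.6 CPM. Thinned to 3000 UMIs, 29.5% of sham relay-like nuclei (28.2 to 30.9) and 36.2% of injury ones (34.7 to 37.6) held a UMI of Grm4. The same share was 0 of 75 in sham and 0.427% in injury oligodendrocyte-like nuclei. Without thinning it was 64.5% and 71.3% in relay-like and 0.796% and 1.04% in oligodendrocyte-like nuclei, whose median depth was 1552 and 1657.5 UMIs.

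The Grm4 ratio in relay-like nuclei was 0.40 on the log2 scale (0.35 to 0.45), 1.32-fold higher in the injury library. All 6 relay-like clusters were past the fold limit, and each interval lay above 0. The Npsr1 cluster had 8 of the 16 relay markers raised, the fewest that gave the name, where the other 5 had 12 to 14, and it was 10.3% of sham and 5.98% of injury relay-like nuclei. The C6 cluster went from 127 to 161 CPM (log2 ratio 0.35, 0.27 to 0.42). The Adgrf5 cluster went from 133 to 173 CPM (0.38, 0.28 to 0.47). The Ppp1r3a cluster went from 115 to 151 CPM (0.39, 0.27 to 0.52). The largest ratio was that of the Adgrg6 cluster, 89.5 to 132 CPM (0.56, 0.39 to 0.74). The smallest were those of the Npsr1 cluster, 81.6 to 97.8 CPM (0.26, 0.01 to 0.51), and the Fgf10 cluster, 120.4 to 146 CPM (0.28, 0.05 to 0.51). One further cluster had 11 of the 16 relay markers raised but was kept out because its leading genes held no relay marker but Glis3, a marker fixed for another cell type. This cluster, led by Adamtsl3, went the other way, from 90.8 to 76.3 CPM, with an interval that contains 0 (-0.25, -0.58 to 0.08). Its 11 raised relay markers were more than the 8 of the Npsr1 cluster. Of the 6 clusters in the class, only the Adgrf5 cluster held a relay marker among its leading genes. The exclusion thus rested on Glis3.

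Median depth was alike in the 2 sets of relay-like nuclei, 9847 UMIs in sham and 9995 UMIs in injury. Outside the relay class the Grm4 difference was smaller or not detectable. The ratio was 0.09 (-0.01 to 0.18) in other glutamatergic, 0.08 (-0.25 to 0.41) in habenula-like and -0.14 (-0.36 to 0.08) in GABAergic nuclei. Among other glutamatergic clusters, that led by Sycp2l and Gli3 was past the fold limit, from 57.9 to 71.8 CPM (0.31, 0.14 to 0.48). Of the glutamatergic clusters kept out, that led by Gm36903 had 138 and 135 CPM in sham and injury (-0.03, -0.28 to 0.22). The Glis3 cluster went from 87.2 to 100.7 CPM (0.21, 0.07 to 0.35).

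**Figure D2:**
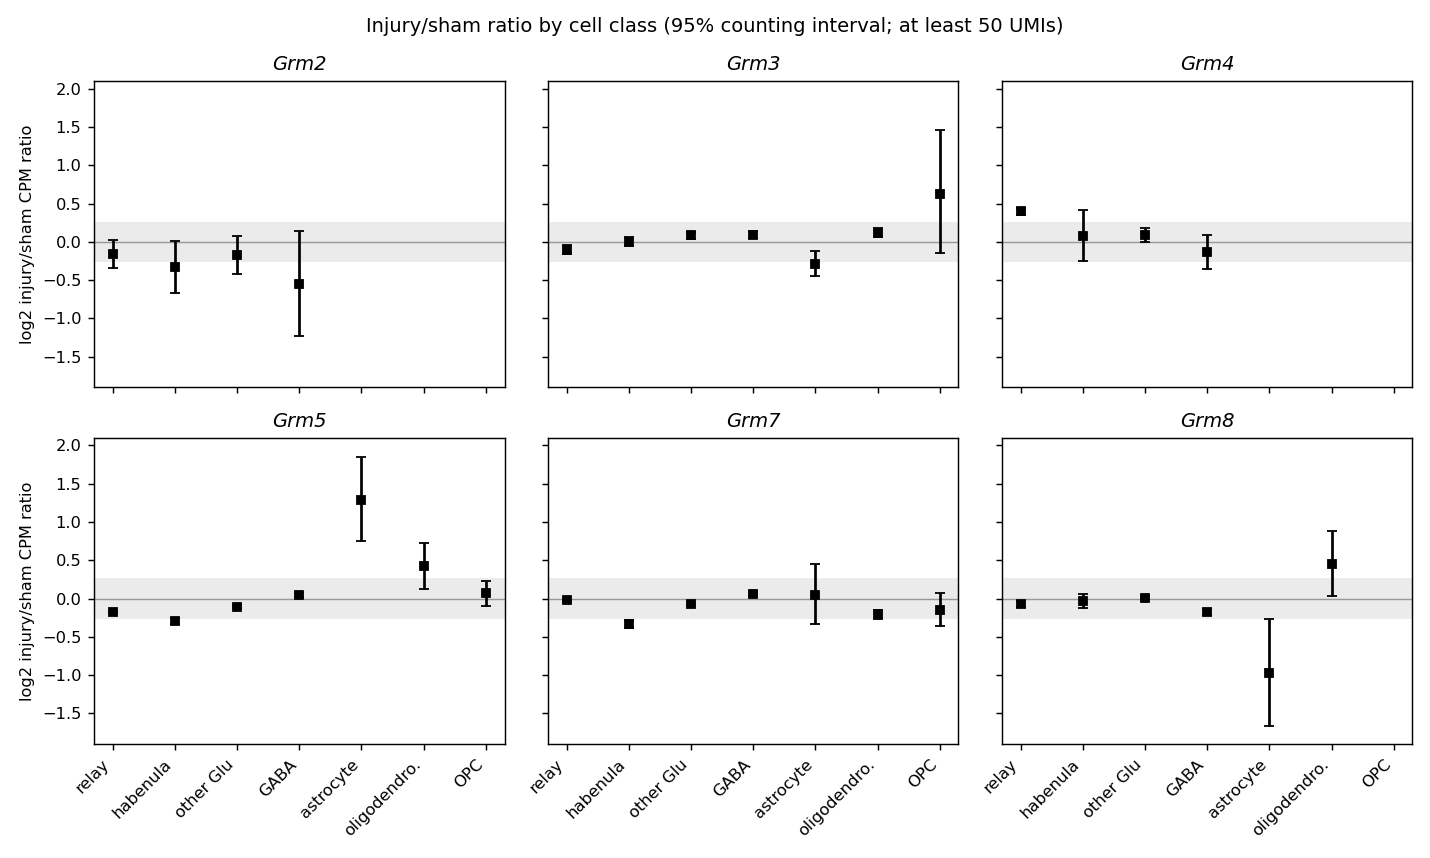
Log2 injury/sham ratio of CPM for each of the 6 genes in 7 cell classes; squares are the ratio of the 2 libraries, bars the 95% counting interval, and the grey band a log2 ratio from -0.25 to 0.25. Classes with fewer than 50 UMIs over both libraries are left out. Grm4 in relay-like nuclei lies above the band with a short bar, while Grm2 has bars that reach 0 in every class.

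Grm7, whose receptor sits at transmitter release sites, was highest in relay-like nuclei, with 3628 CPM in sham and 3570.4 CPM in injury. Of sham relay-like nuclei thinned to 3000 UMIs, 99.93% held at least 1 of its UMIs, against 34.2% of habenula-like and 31.4% of astrocyte-like nuclei. Without thinning the shares were 99.98% in relay-like and 22.97% in astrocyte-like nuclei. It was also abundant in oligodendrocyte-like nuclei, with 1979 and 1717 CPM against a free-RNA estimate of 364 and 325 CPM. Other glutamatergic nuclei had 2131 and 2036 CPM, GABAergic nuclei 1740 and 1814 CPM, oligodendrocyte-precursor-like nuclei 968 and 877 CPM (free-RNA estimate 385 and 234 CPM) and habenula-like nuclei 647 and 514 CPM. Astrocyte-like nuclei, with 165 and 171 CPM, were under the estimate for free RNA (245 and 225 CPM). In the sham library no 2 neighbours among these classes had overlapping intervals.

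In relay-like nuclei the Grm7 ratio was -0.02 (-0.03 to -0.01), and over its 6 clusters it ran from -0.05 to 0.00. Within the habenula the Chat cluster stood at 62.9 CPM in sham and 67.6 in injury and the Pde11a cluster 69.9 and 89.03 CPM, against 1242 and 1186 CPM in the Ptprq cluster. The free-RNA estimate for the habenula-like class, 106 CPM in sham and 119 CPM in injury, is above the levels of the Chat and Pde11a clusters, so no Grm7 expression and no difference between libraries was read from them. The Ptprq cluster had 9 of the 18 habenular markers raised, the fewest that gave the name, where the Chat cluster had 13 and the Pde11a cluster 14. The 18 markers include Ptprq itself, as well as Chat and Pde11a. The name of the Ptprq cluster thus depended on its own leading gene, and the habenula-like levels and ratios depend on that name. The class ratio of -0.33 (-0.38 to -0.28) was not that of its clusters. It was 0.10 (-0.16 to 0.37) in the Chat, 0.35 (0.05 to 0.64) in the Pde11a and -0.07 (-0.12 to -0.02) in the Ptprq cluster. With the same mix of clusters in both libraries the class ratio was -0.05, and in the finer clustering it turned to 0.15. The Ptprq cluster, highest in Grm7, made up 41.8% of sham and 33.1% of injury habenula-like nuclei.

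Reticular-like nuclei had more Grm7 in the injury library, 1369 CPM in sham and 1658 CPM in injury (log2 ratio 0.28, 0.23 to 0.32). The Gata3 and Pax6 cluster stood at 1874 and 1873 CPM (0.00, -0.03 to 0.03), so the class as a whole moved little (0.06, 0.04 to 0.08). Oligodendrocyte-like nuclei had less, with a class ratio of -0.21 (-0.26 to -0.15). In 2 of the 4 oligodendrocyte-like clusters the interval lay below 0, with the lowest ratio, -0.27, in the cluster led by A530053G22Rik and Anln.

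Grm8 was highest in other glutamatergic nuclei, with 735 CPM in sham and 741 CPM in injury, and in GABAergic nuclei, with 677 and 598 CPM. It followed in relay-like nuclei with 189.6 and 179.9 CPM and in habenula-like nuclei with 161 and 158 CPM. The relay-like level came almost wholly from 1 cluster. The C6 cluster had 418 and 400.4 CPM, while the other 5 relay-like clusters had between 12.9 and 74.2 CPM in sham. In the habenula the Pde11a cluster led with 433 and 428 CPM, over 109.6 and 139 CPM in the Ptprq cluster and 31.8 and 42.6 CPM in the Chat cluster.

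Between libraries, Grm8 was lower in the Gata3 and Pax6 GABAergic cluster, from 723 to 605 CPM (log2 ratio -0.26, -0.30 to -0.21), and not in the reticular-like cluster (0.08, with an interval that contains 0). It was higher in the Chat cluster (0.42, 0.07 to 0.79) and the Ptprq cluster (0.34, 0.18 to 0.51) of the habenula but not in the Pde11a cluster (-0.02, -0.14 to 0.11). The habenula-like class showed none of this (-0.03, -0.13 to 0.06). The free-RNA estimate of Grm8 for that class was 17.0 CPM in sham and 20.6 CPM in injury, against 31.8 and 42.6 CPM measured in the Chat cluster. Relay-like nuclei had a ratio of -0.08 (-0.12 to -0.03) and other glutamatergic nuclei one of 0.01 (-0.01 to 0.04).

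**Figure D3:**
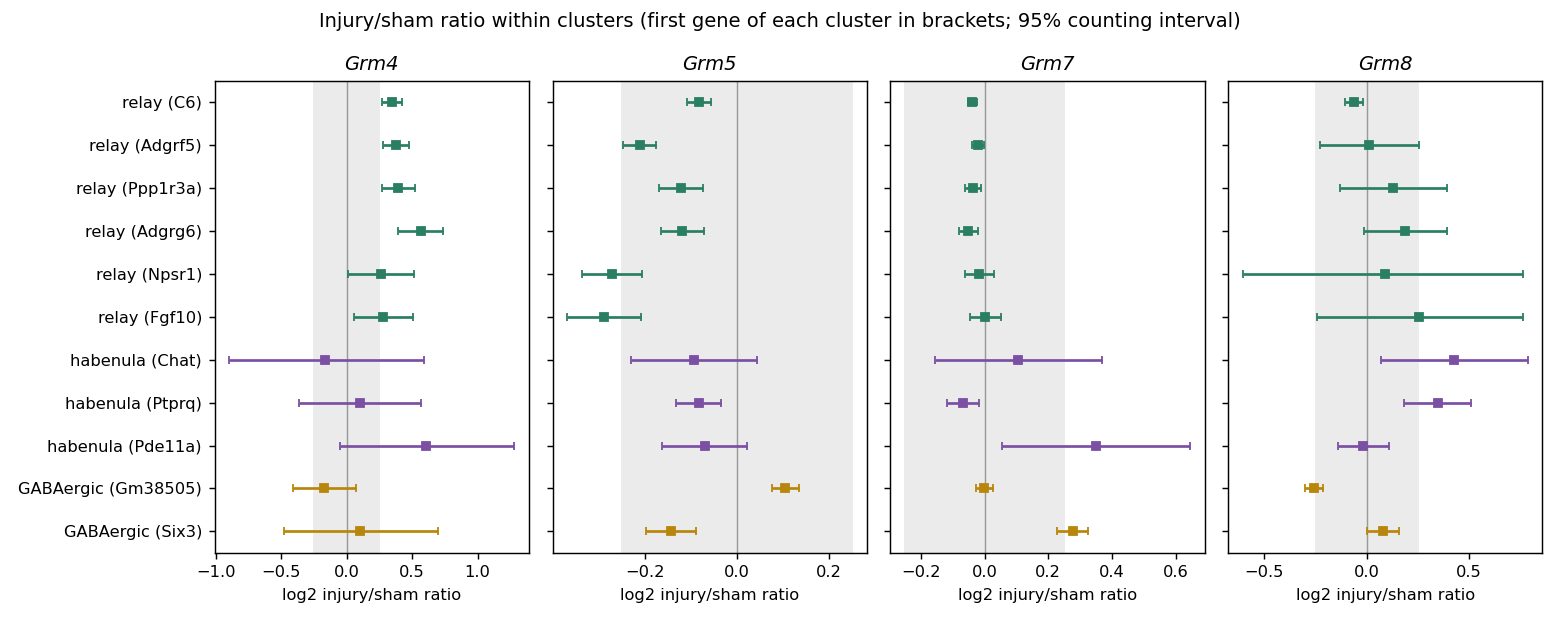
Log2 injury/sham ratio of Grm4, Grm5, Grm7 and Grm8 within the 6 relay-like (green), 3 habenula-like (purple) and 2 GABAergic (gold) clusters, each named by its first leading gene; bars are the 95% counting interval and the grey band runs from -0.25 to 0.25, with a separate horizontal scale for each gene. All 6 relay-like clusters lie right of 0 for Grm4 and left of 0 for Grm5, and Grm7 lies right of the band in the reticular-like (Six3) cluster.

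Among the other glutamatergic nuclei the small cluster with Ebf2 and Corin, 71 sham and 175 injury nuclei, held the largest log2 ratios of Grm5 and Grm8 in that class. There, Grm5 went from 426 to 832 CPM (0.96, 0.68 to 1.26), Grm8 from 1405 to 2381 CPM (0.76, 0.60 to 0.92) and Grm7 from 4617 to 3037 CPM (-0.60, -0.70 to -0.51). In the cluster with Oxt and Avp, 78 and 177 nuclei, Grm5 went from 600.2 to 477 CPM (-0.33, -0.52 to -0.14) and Grm3 from 392 to 490.2 CPM (0.32, 0.10 to 0.55). Both clusters were a larger share of their class in the injury library. The Ebf2 and Corin cluster was 1.75% in sham and 3.84% in injury, and the Oxt and Avp cluster 1.92% and 3.88%.

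In astrocyte-like nuclei the receptors of astrocytes, mGlu3 and, in development and reactive states, mGlu5, moved in opposite directions at the class level. Grm3 went from 974 CPM (885 to 1069) to 799 CPM (753 to 846), a log2 ratio of -0.29 (-0.45 to -0.12). Grm5 went from 72.7 CPM (33 UMIs) to 177 CPM (253 UMIs), a ratio of 1.28 (0.76 to 1.85). Part of the injury nuclei formed a cluster of their own, 93 nuclei with leading genes A2m, Gfap and Aqp4 and none from the sham library. Gfap, the intermediate filament that marks reactive astrocytes, stood at 8.81 CPM in sham and 392 CPM in injury astrocyte-like nuclei.

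This A2m and Gfap cluster had 446 CPM of Grm3 (378 to 523) and 411 CPM of Grm5 (345 to 485). The remaining 416 injury astrocyte-like nuclei had 909 CPM of Grm3 (853 to 968) and 104 CPM of Grm5 (85.5 to 125). Within the injury library the A2m and Gfap cluster therefore had less Grm3 (log2 difference -1.03, -1.28 to -0.78) and more Grm5 (1.98, 1.62 to 2.36) than the remaining astrocyte-like nuclei. Neither gene had been used to form the clusters. Without the A2m and Gfap cluster, the ratio between libraries was -0.10 (-0.26 to 0.07) for Grm3 and 0.51 (-0.06 to 1.12) for Grm5, and both intervals contain 0.

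Free RNA would give 115 CPM of Grm5 in sham astrocyte-like nuclei and 142 CPM in the remaining injury ones, at or over the measured levels, but 36.2 CPM in the A2m and Gfap cluster, well under its 411 CPM. The estimate for that cluster is given without an interval. It rests on Slc17a6, Slc17a7 and Gad2, and the first 2 together had 2.93 CPM there, the level of 1 UMI. The 5 general neuron markers summed to 1287 CPM in sham, 1453 CPM in the remaining injury astrocyte-like nuclei and 1238 CPM in the A2m and Gfap cluster, all 5 being detected in each. Slc17a6 and Slc17a7 together had 13.2, 14.7 and 2.93 CPM, with Slc17a7 at 0 in the A2m and Gfap cluster and in no other of the 3 sets. The 8 cortical neuron markers summed to 57.3, 49.6 and 20.5 CPM in the same order. Of these, Neurod6, Neurod2, Slc30a3 and Lamp5 were among those at 0 both in the A2m and Gfap cluster and in sham, and Slc30a3 and Lamp5 in the remaining injury nuclei too. The 4 GABAergic markers summed to 535, 545 and 408 CPM, with Gad1 at 0 in that cluster and in sham and Slc32a1 at 0 in all 3 sets. The 6 dentate markers ran the other way, with 335, 419 and 1029.6 CPM. Of these, C1ql2, Dsp and Plk5 were at 0 in the A2m and Gfap cluster and in sham, and Dsp in the remaining injury nuclei too. Calb1 was at 0 in the A2m and Gfap cluster alone, so the sum there came from Prox1 and Glis3 only. The median depth was 1892 UMIs in sham, 2401 UMIs in the remaining injury nuclei and 3373 UMIs in the A2m and Gfap cluster. The part of these values in the Grm5 difference was not tested.

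Grm8 was at 66.1 CPM in sham (30 UMIs) and 33.6 CPM in injury astrocyte-like nuclei (48 UMIs), a ratio of -0.98 (-1.67 to -0.27). The estimate for free RNA was 39.2 and 39.0 CPM, so the injury level was not above it. The 30 sham UMIs lay in 15 of 209 nuclei (7.18%) and the 48 injury UMIs in 39 of 509 (7.66%). Thinned to 1500 UMIs the shares were 5.56% (2.43 to 10.7) and 4.93% (3.04 to 7.51), with overlapping intervals, and thinned to 3000 UMIs they were 22.9% (10.4 to 40.1, 8 of 35 nuclei) and 6.74% (3.64 to 11.2, 13 of 193 nuclei), also overlapping. At both thinned depths the injury share was thus the lower one, with overlapping intervals. Without thinning it was not lower, at median depths of 1892 UMIs in sham and 2549 UMIs in injury.

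**Figure D4:**
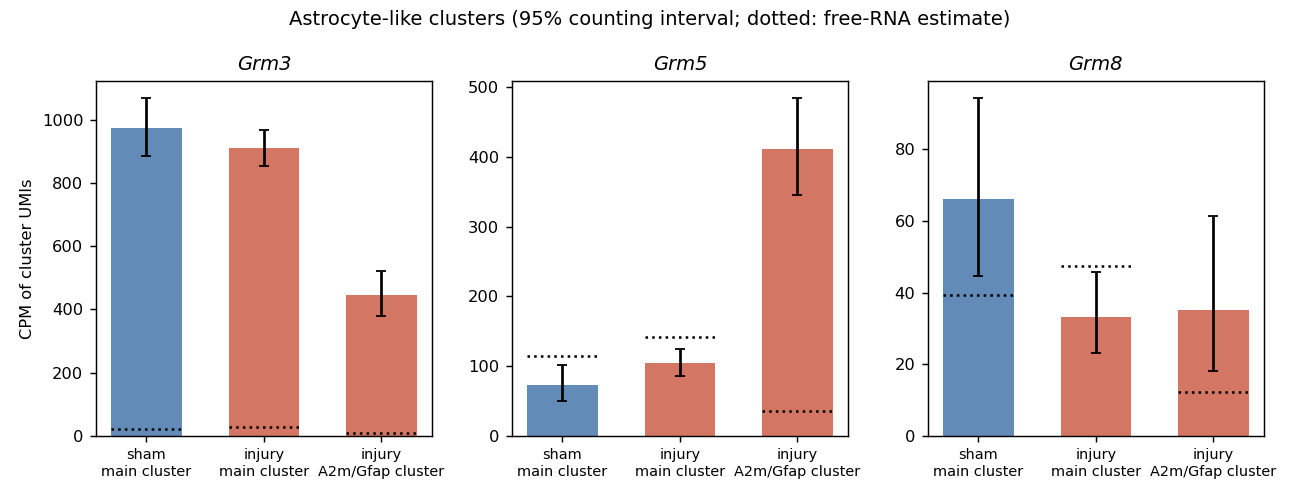
Level of Grm3, Grm5 and Grm8 (CPM of the UMIs of the cluster) in 209 sham nuclei and 416 injury nuclei of the main astrocyte-like cluster and in the 93 injury nuclei of the A2m and Gfap cluster; bars show the level, error bars the 95% counting interval and dotted lines the level that free RNA would give by estimate. The A2m and Gfap cluster has about 446 CPM of Grm3 and 411 CPM of Grm5, and is the 1 set of the 3 in which Grm5 is above the dotted line.

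The share of all genes past the fold limit puts these counts in scale. In relay-like nuclei 31.6% of the 16482 genes with at least 50 UMIs over both libraries were past it in either direction, and 1 of the 6 receptor genes was, Grm4. In habenula-like nuclei it was 27.7%, and 3 of 6 receptor genes (Grm2, Grm5 and Grm7). In other glutamatergic nuclei it was 25.3% and 0 of 6, and in GABAergic nuclei 29.6% and 1 of 6, Grm2. Among glia, with fewer UMIs, the shares were 52.3% in astrocyte-like nuclei, where 3 of 4 measured receptor genes were past it (Grm3, Grm5 and Grm8), or 46.7% and 2 of 4 (Grm5 and Grm8) without the A2m and Gfap cluster, and 44.2% in oligodendrocyte-like nuclei, with 2 of 4 (Grm5 and Grm8). In oligodendrocyte-precursor-like nuclei it was 46.3%, with 1 of 3 (Grm3, log2 ratio 0.63, interval -0.15 to 1.46). These counts go by the ratio alone. The interval contains 0 for this Grm3 ratio and for Grm2 in habenula-like and GABAergic nuclei. It also does for Grm5 in astrocyte-like nuclei without the A2m and Gfap cluster. With at most 6 receptor genes in a class, no difference from the share of all genes was read from these counts. With the same mix of clusters in both libraries, 1 of 6 receptor genes was past the fold limit in habenula-like nuclei. The share of all genes was not taken under that mix, so the change in this count was not read as a result.

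Length of the gene moved with the ratio in relay-like nuclei. Genes with a body of at least 50 kb had a median log2 ratio of 0.06 (4829 genes), shorter ones -0.08 (11653 genes), and the 76 ribosomal protein genes -0.56. Of genes with a body of at least 50 kb, 16.9% were higher and 5.45% lower past the fold limit. All the receptor genes but Grm2 are in that set. The part of gene length and of RNA quality in the Grm4 ratio of 0.40 was not tested, and with 1 library a group a difference between the pools or their preparation cannot be told apart from the injury.

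The other genes of the pathway were read from a list of 57 genes. It covers receptor genes outside the 6, Gq signalling, Homer and Shank scaffolds, Gi/o signalling, regulators and binding partners, and the handling of glutamate. Grm6, the receptor of retinal bipolar cells, had 1 UMI in sham relay-like nuclei and 0 in injury ones. In relay-like nuclei 55 of the 57 genes had enough UMIs, of which 10 were higher and 3 lower past the fold limit, with a median log2 ratio of 0.06 against -0.03 over all genes tested and 0.06 over genes with a body of at least 50 kb. Of all genes tested there, 12% were higher and 19.6% lower past the limit. In the Gq and calcium release group 4 of 12 were higher and none lower. They were Plcb4, a phospholipase C (804 to 984 CPM, 0.29, 0.27 to 0.31), the IP3 receptors Itpr1 (214 to 269 CPM, 0.33, 0.29 to 0.36) and Itpr2 (11.7 to 15.3 CPM, 0.39, 0.23 to 0.54), and protein kinase C beta, Prkcb (297 to 358 CPM, 0.27, 0.24 to 0.30).

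Among scaffolds 1 of 6 was past the limit in relay-like nuclei, Shank2 (287 to 372 CPM, 0.37, 0.34 to 0.40). In the Gi/o group 2 of 14 were higher: Gnao1, the Go alpha subunit (239 to 292 CPM, 0.29, 0.26 to 0.33), and Adcy5, an adenylyl cyclase (61.4 to 79.4 CPM, 0.37, 0.30 to 0.44). Of 14 regulators and partners, Elfn2 (22.02 to 29.3 CPM, 0.41, 0.30 to 0.53) and Grk3, a receptor kinase (123 to 154 CPM, 0.33, 0.28 to 0.37), were higher. Rgs4, which speeds the shut-off of G protein signals, was lower (18.6 to 14.7 CPM, -0.34, -0.48 to -0.20). Of 8 measured genes for glutamate and N-acetylaspartylglutamate handling, 1 was higher and 2 were lower. The lower ones were Slc7a11, the cystine-glutamate exchanger (5.04 to 3.44 CPM, -0.55, -0.83 to -0.27), and Rimklb, which makes N-acetylaspartylglutamate (14.3 to 11.1 CPM, -0.36, -0.52 to -0.20). The higher one was Slc1a3, an astrocyte transporter, at 0.615 and 1.07 CPM.

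In habenula-like nuclei 4 of 52 measured pathway genes were higher and 13 lower past the fold limit (median -0.05), where 13.3% of all genes were higher and 14.4% lower. With the same mix of clusters in both libraries, 8 in place of 17 were past it, but the share of all genes was not taken under that mix. In GABAergic nuclei 4 of 55 were higher and 3 lower (median 0.02), where 16.6% of all genes were higher and 13% lower. Among the higher ones were Prkca (147 to 189 CPM, 0.36, 0.29 to 0.44) and Kcnj6, a GIRK channel subunit (123 to 157 CPM, 0.35, 0.27 to 0.44). In astrocyte-like nuclei 11 of 35 were higher and 5 lower (median 0.05), where 27.1% of all genes were higher and 25.3% lower. Prkca went from 315 to 611 CPM (0.96, 0.70 to 1.22), Itpr1 from 152 to 269.96 CPM (0.83, 0.46 to 1.22) and Slc7a11 from 516 to 329 CPM (-0.65, -0.88 to -0.42). Without the A2m and Gfap cluster 10 of 33 were higher and 6 lower, where 23.0% of all genes were higher and 23.7% lower. The ratios were then 0.50 (0.22 to 0.78) for Prkca, 0.65 (0.26 to 1.05) for Itpr1 and -0.54 (-0.77 to -0.30) for Slc7a11.

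The genes most like each receptor gene in their pattern were sought among 16382 genes over 27 clusters of 50 or more nuclei per library, without 3 clusters of that size that were mostly called doublets, by Pearson's correlation of log2(CPM + 1). The closest was Ildr2 with Grm4 (r = 0.96), followed for Grm4 by Slc23a2 (0.94) and Grid2ip (0.94). Grm5 was closest to Slc9a5 (0.93), Stau2 (0.93) and Frmd3 (0.93), and Grm2 to Gm42875 (0.89), Ap1s3 (0.89) and Gm48393 (0.87). Grm7 was closest to Gm27153 (0.89), Unc5c (0.86) and Tmem132b (0.86), Grm8 to Dchs2 (0.87), Fbxo10 (0.84) and Rmst (0.84), and Grm3 to Ddx3x (0.86), Gpt (0.85) and Mettl7a1 (0.84). The points share their libraries and differ in depth, with glia shallower than neurons. Among the receptor genes themselves, Grm3 ran against Grm5 (-0.73) and Grm4 (-0.69), and Grm2, Grm4 and Grm5 had correlations of 0.54 to 0.68 with each other. By Spearman's correlation these last were 0.23 for Grm2 with Grm5, 0.49 for Grm2 with Grm4 and 0.48 for Grm4 with Grm5. The closest genes also depended on the measure. By Spearman's correlation Ap1s3 stayed among the first 3 for Grm2 and Dchs2 for Grm8, and none of the 3 did for Grm3, Grm4, Grm5 and Grm7. Unc5c then ranked 1659 and Tmem132b 499 for Grm7, Stau2 185 for Grm5, Mettl7a1 167 for Grm3 and Ildr2 4 for Grm4.

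**Figure D5:**
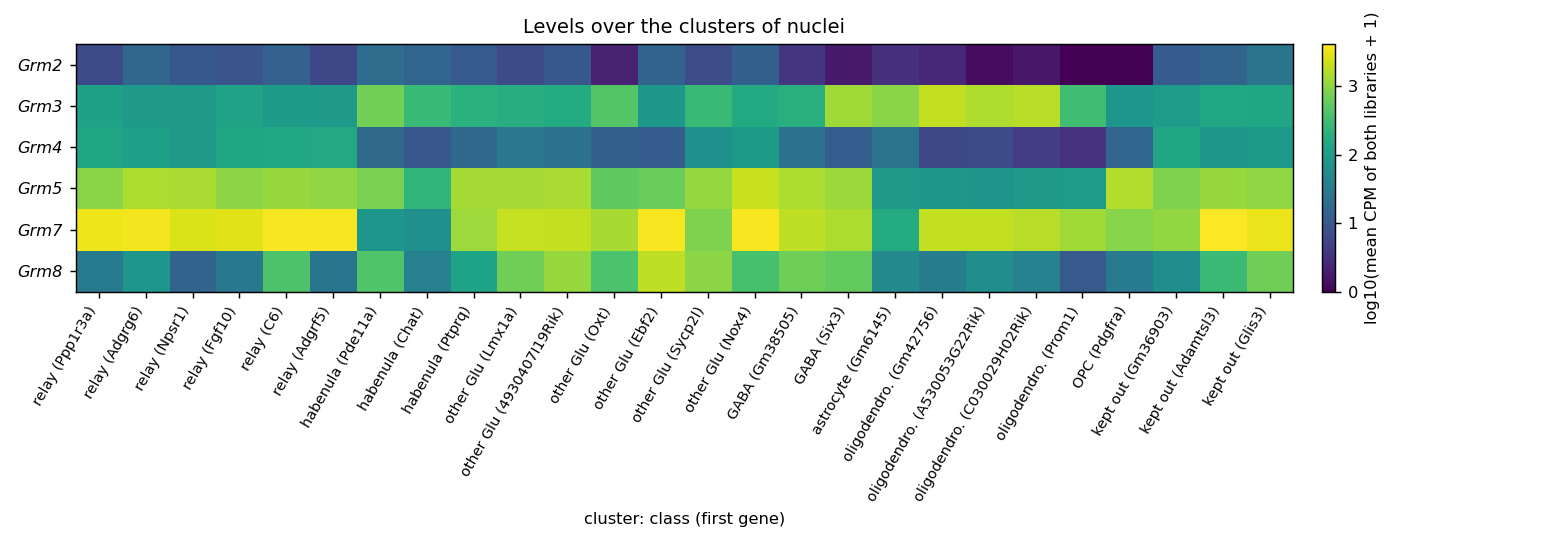
Heat map of the level of each of the 6 genes (rows) in the 26 named clusters with at least 50 nuclei in each library (columns, labelled with the class and the first leading gene); colour is log10 of the mean CPM of both libraries plus 1. Grm7 is bright in the relay-like columns and dark in the Chat and Pde11a columns of the habenula, and Grm3 is brightest in 3 of the 4 oligodendrocyte-like columns and in the reticular-like (Six3) column.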

How the data were processed

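Nuclei of the thalamus were profiled with 10x 3' chemistry in 1 sham and 1 injury library, each a pool of 4 mice. The deposited values were raw UMI counts per gene and barcode, which the authors made with Cell Ranger 6.0.2 on GRCm38 (mm10) after bcl2fastq, with Seurat 4.0 for later steps, per the submitters' processing notes. The counting of intronic reads, the use of strand and the annotation release are not given in the sources used here. The libraries held 137850696 UMIs in 16390 barcodes (sham) and 180106314 UMIs in 21828 barcodes (injury), and the shallowest barcode held 500 UMIs.

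Barcodes with at least 200 and at most 7500 genes and at most 2% mitochondrial UMIs were kept. Both libraries were integrated and clustered with Seurat 5.3.0 in R 4.3.3 (30 components, resolution 0.5) on 1978 variable genes, without the receptor genes and the pathway list. Scrublet, run in scanpy 1.11.5, called 2179 sham and 3871 injury nuclei as doublets. These were kept, but clusters with over 50% of them went into no class. Clusters were named from fixed marker lists, and neuron clusters under 50 nuclei in 1 library, or with more foreign than own markers among the 10 leading genes, were kept out. This was not applied to glia, so the astrocyte-like class holds a cluster of 0 sham and 93 injury nuclei, and values without it are given. UMIs were summed per class and library and divided by the class total (CPM, per 1000000 UMIs). Intervals are exact Poisson for levels and exact binomial (Clopper-Pearson) for ratios and shares, and cover counting error only. A ratio needed 50 UMIs over both libraries. There was no test and no p-value, since each group is 1 library. The interval code was tested on simulated data. Free RNA was estimated as the share of the summed profile of the library that genes of other classes allow in a class.

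The receptor genes and lists were chosen with earlier results of these data known, and the thresholds for naming clusters and the genes for the free-RNA estimate were set after the data were seen. Named genes are the 6 receptor genes, the 3 genes most correlated with each, and pathway genes past a log2 ratio of 0.25 with an interval that excludes 0, up to 4 per group and class. Alternatives were edgeR 4.0.16 TMM factors, mean CPM of nuclei, no integration, resolution 1.0, doublets left out, free RNA subtracted, an equal cluster mix, kept-out clusters put in, other minimums, thinning depths and folds, and Spearman correlation. Leaving out the injury-only astrocyte cluster, also for the pathway list, and nuclei whose barcode was in both libraries, was added after seeing the data. No gene sequence is printed. Some genes of the lists are not reported here.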

Additional observations from a re-analysis of the deposited data

Results flagged for a closer look

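For the genes here, the log2 injury/sham ratio was past 0.25 upwards in some classes or clusters and past -0.25 in others, each with a counting interval that excludes 0. The differences between classes or clusters were not tested, and each rests on 1 library a group.

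By class, Grm5 had -0.29 in habenula-like, 1.28 in astrocyte-like and 0.42 in oligodendrocyte-like nuclei, and Grm8 had -0.98 in astrocyte-like and 0.45 in oligodendrocyte-like nuclei. Both genes were below the free-RNA estimate in oligodendrocyte-like nuclei. In astrocyte-like nuclei Grm5 in sham (72.7 CPM, estimate 115 CPM) and Grm8 in injury (33.6 CPM, estimate 39.0 CPM) were not above it. The Grm5 ratio ran from -0.09 to -0.07 over the habenula-like clusters. Without the A2m and Gfap cluster it was 0.51 (-0.06 to 1.12) in astrocyte-like nuclei, with an interval that contains 0.

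By cluster, Grm3 had -0.26 in the Adgrf5, -0.32 in the Adgrg6 and -0.28 in the Npsr1 relay-like clusters and 0.32 in the Oxt and Avp cluster. Grm5 had -0.27 in the Npsr1 and -0.29 in the Fgf10 relay-like clusters, -0.33 in the Oxt and Avp cluster, 0.96 in the Ebf2 and Corin cluster and 1.15 in the Prom1 oligodendrocyte-like cluster, the last from 14 sham and 59 injury UMIs. Grm7 had 0.28 in the reticular-like cluster, 0.35 in the Pde11a habenula-like cluster (where its levels were below the free-RNA estimate of the class), 0.33 in the glutamatergic cluster led by Gm36903, -0.60 in the Ebf2 and Corin cluster and -0.27 in the A530053G22Rik and Anln oligodendrocyte-like cluster. Grm8 had -0.26 in the Gata3 and Pax6 GABAergic cluster, 0.42 in the Chat and 0.34 in the Ptprq habenula-like clusters, 0.76 in the Ebf2 and Corin cluster and -1.0 in the main astrocyte-like cluster. In the Chat cluster its levels were 31.8 and 42.6 CPM, where the free-RNA estimate of the class was 17.0 and 20.6 CPM. In the main astrocyte-like cluster its injury level was 33.1 CPM, under the estimate of 47.4 CPM.

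Clusters found almost wholly in the injury library, and used in no comparison, also held receptor RNA. Which tissue these nuclei came from was not tested. Grm5 stood at 5066 CPM in the GABAergic Ano2 and Prdm16 cluster, 2727 CPM in the cortex-like Neurod6 cluster and 1929 CPM in the dentate-like Dsp cluster. Grm8 stood at 1106 CPM in the Ano2 and Prdm16 cluster, and Grm2 at 33.6 CPM in the dentate-like cluster.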

How the results depend on the processing

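No paired analysis was possible because there was 1 pooled library a group. The Grm4 ratio in relay-like nuclei kept its direction and stayed past the fold limit under each alternative run for it, and was 0.45 with mean CPM of single nuclei. In habenula-like nuclei the Grm5 ratio was -0.38 at clustering resolution 1.0 and -0.082 with the same mix of clusters. There the Grm7 ratio turned to 0.15 at resolution 1.0, where the class held 1390 sham and 1716 injury nuclei, and was -0.39 with doublets left out, -0.44 with free RNA subtracted and -0.048 with the same mix of clusters. In astrocyte-like nuclei the ratios were -0.10 for Grm3 and 0.51 for Grm5 with the same mix of clusters, and likewise without the injury-only cluster. The number of receptor genes past the fold limit was 1 in habenula-like nuclei with the same mix, 1 in other glutamatergic nuclei with doublets left out and with kept-out clusters put in, 2 and 3 in GABAergic nuclei with free RNA subtracted and with kept-out clusters put in, 1 in astrocyte-like nuclei with free RNA subtracted, 1 and 0 in oligodendrocyte-like nuclei without integration and with free RNA subtracted, and 0 in precursor-like nuclei with mean CPM. Pathway genes past it numbered 8 in habenula-like nuclei with the same mix, 5 in other glutamatergic nuclei at resolution 1.0 and, with at least 200 UMIs, 9 in astrocyte-like, 11 in oligodendrocyte-like and 2 in precursor-like nuclei. For the mix, doublet, integration, resolution, free-RNA, kept-out and mean-CPM alternatives the share of all genes past the limit was not taken. No result about the receptor or pathway genes was read from these counts. With a fold of 0.5 the share of all genes past it was 9.33% in relay-like, 7.06% in habenula-like, 7.66% in other glutamatergic, 9.5% in GABAergic, 23.0% in astrocyte-like, 14.8% in oligodendrocyte-like and 16.0% in precursor-like nuclei, and with at least 200 UMIs it was 25.9% in the last. Subtracting free RNA moved 50 of 84 CPM levels past their counting interval, and Spearman correlation changed the closest genes for all 6 receptor genes. Apart from the alternatives whose construction changes the mix, the fold or the genes counted, the cause was not tested. Depth limits Grm2 in every class and all 6 genes in astrocyte-like and precursor-like nuclei.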

Other observations

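A cluster of mural-like nuclei, with Abcc9, Vtn and Rgs5 among its leading genes, was too small to compare, with 9 sham and 21 injury nuclei. It held Grm3 at 1685 CPM in sham (1015 to 2632, from 19 UMIs) and 2699 CPM in injury (2176 to 3311, from 92 UMIs). Grm7 stood there at 3105 CPM in sham (35 UMIs) and 2553 CPM in injury (87 UMIs). Grm2 and Grm4 had 0 UMIs in both libraries.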
